A study of Mus musculus with 20 samples.

Results

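Narrow constitutive Suz12 sites are short stretches of the mouse genome that carried a Suz12 peak before and after transcription was inhibited. They were chosen from the deposited peak lists alone. Peaks of the 8 Suz12 lists that overlapped by at least 1 bp were merged into 11943 regions, of which 4281 had a peak in all 8 lists. In 694 of these the widest original peak was under 1500 bp, and these 694 are the narrow sites described here. The other 3587 regions with a peak in all 8 lists are called wider constitutive regions. Another 1065 regions, called gained, had peaks in the 4 treated lists but in none of the untreated ones and serve only for comparison.

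All libraries came from wild-type E14 cells, an established mouse embryonic stem cell line, grown in medium with serum and leukemia inhibitory factor. Chromatin bound by Suz12 was sequenced in 4 groups of 2 libraries each, which the submitters describe as biological replicates. The groups were cells before (0 h) and 12 h after 100 µM DRB, and cells before (0 h) and 9 h after 10 µM triptolide. The other 12 samples of the series were not analysed here.

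Suz12 belongs to the core of Polycomb repressive complex 2 (PRC2), the enzyme complex that methylates histone H3 to give the repressive mark H3K27me3. In embryonic stem cells PRC2 is known to sit on CpG-rich promoters of silent developmental genes, some in broad domains and some in short peaks. DRB blocks the kinase that releases paused RNA polymerase II into elongation, and triptolide blocks transcription initiation through the TFIIH subunit XPB.

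Promoters at the sites held 3 to 54 CG dinucleotides per 300 bases, and that count moved with the Suz12 change described further on. The promoters of 5 sites that the results return to are printed here, and none of them comes from the CG-rich end. Each is the 250 bases before the outermost annotated start, 5′ to 3′ along the gene, from RefSeq on GRCm38.p6, and capitals mark each CG. Pacc1 was among the few sites with more Suz12 under both drugs, and its stretch is chr1:191325652-191325901 on the plus strand with 12 CG. Npy5r had the largest fall (chr8:66688095-66688344 on the minus strand, 12 CG). Pgm5 also fell (chr19:24861843-24862092 on the minus strand, 13 CG). Pkib was a fall with few CG (chr10:57631731-57631980 on the plus strand, 4 CG). Kcnk15 was among the sites with the densest Suz12 signal (chr2:163853500-163853749 on the plus strand, 17 CG).
Pacc1: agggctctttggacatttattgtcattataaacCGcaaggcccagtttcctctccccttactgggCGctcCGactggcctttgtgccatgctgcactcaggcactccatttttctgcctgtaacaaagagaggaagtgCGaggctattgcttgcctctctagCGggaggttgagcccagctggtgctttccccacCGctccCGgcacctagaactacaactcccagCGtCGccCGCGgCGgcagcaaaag
Npy5r: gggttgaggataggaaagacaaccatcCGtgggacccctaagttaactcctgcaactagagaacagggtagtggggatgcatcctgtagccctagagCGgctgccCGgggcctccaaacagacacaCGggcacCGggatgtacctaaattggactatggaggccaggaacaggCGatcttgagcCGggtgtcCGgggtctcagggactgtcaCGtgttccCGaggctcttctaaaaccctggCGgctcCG
Pgm5: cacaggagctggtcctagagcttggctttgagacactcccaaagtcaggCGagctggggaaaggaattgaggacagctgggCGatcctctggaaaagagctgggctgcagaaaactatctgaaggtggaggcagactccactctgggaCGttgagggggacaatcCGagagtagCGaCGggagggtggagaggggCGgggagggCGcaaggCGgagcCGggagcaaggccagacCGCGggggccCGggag
Pkib: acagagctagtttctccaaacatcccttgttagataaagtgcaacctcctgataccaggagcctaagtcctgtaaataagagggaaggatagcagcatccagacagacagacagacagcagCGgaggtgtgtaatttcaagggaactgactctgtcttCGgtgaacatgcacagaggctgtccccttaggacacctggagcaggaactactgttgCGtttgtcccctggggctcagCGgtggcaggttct
Kcnk15: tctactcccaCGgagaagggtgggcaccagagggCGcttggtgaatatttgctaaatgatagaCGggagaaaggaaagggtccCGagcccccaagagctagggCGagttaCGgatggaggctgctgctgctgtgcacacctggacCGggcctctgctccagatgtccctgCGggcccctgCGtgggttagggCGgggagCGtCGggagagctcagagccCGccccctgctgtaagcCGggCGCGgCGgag

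The libraries held 1323927 to 7340017 reads over the 11943 regions, and the median narrow site had 65 to 348 reads per library, with 12 reads as the lowest count. Replicates differed beyond counting noise (chi-square per degree of freedom 2.47 to 8.65), and the biological coefficient of variation in edgeR was 0.128. Counts were taken over a site's widest peak and are given as CPM, counts per 1e6 reads over the regions after TMM scaling, so every level and change is relative to the other regions of the same library. The column names show that DRB counts came from an index ATCACG and an index TGACCA library per time point, and DRB values are given in that order. In those names each lane number went with libraries of untreated or of treated cells and never both, so lane number and treatment cannot be told apart. Both triptolide libraries of a time point carry the same index and the same lane number, and no run is named. Which libraries were sequenced together is therefore not known.

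The rule set the widths and the presence of peaks, so these are given as description. The widest peak of a narrow site measured 709 to 1499 bp, with a median of 1285 bp, against 2540 bp in the wider constitutive regions. In single lists the median width of the peaks at narrow sites ran from 844.5 bp (DRB 0 h, replicate 1) to 1154 bp (triptolide 0 h, replicate 1). Exactly 1 peak per list was present at 682 of the 694 sites (98.3%), and at 74.4% of the wider regions. At the width limit stood Spata5l1 and Scnn1g, each with 1499 bp and inside it, and Met and Insr, each with 1500 bp and outside it. Their changes over both drugs, on the log2 scale used below, were 0.47, -0.54, -0.65 and 0.10. The narrowest named sites lay at Stau2, which encodes a binder of double-stranded RNA (788 bp), Trim58, a ubiquitin ligase of red cell precursors (799 bp), Eya1, a transcriptional coactivator of organ development (809 bp), and Kctd16, an auxiliary subunit of GABA-B receptors (867 bp).

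Suz12 density lay between that of the other classes. The median over narrow sites was 39.1 CPM per kb of the widest peak, with quartiles of 34.2 and 45.3. It was 58.5 CPM per kb in the wider constitutive regions and 22.6 in gained regions. A region that is called in every list, and is short, had to exceed the peak threshold in the shallowest library, and density comes from the same reads as the peaks, so these medians carry no test.

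**Figure D1:**
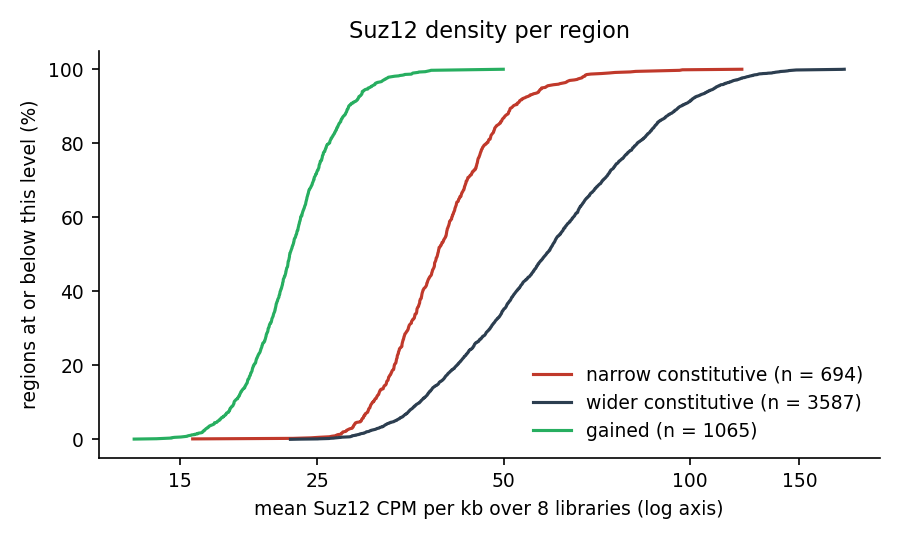
Cumulative share of regions (y axis, %) at or below each mean Suz12 density (x axis, CPM per kb over 8 libraries, log axis) for narrow constitutive sites, wider constitutive regions and gained regions. The narrow curve, with its median at 39.1 CPM per kb, runs between the gained curve (22.6) and the wider curve (58.5) and is steeper than the wider one.

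The densest narrow sites stood above the median of the wider regions. At Slc41a2, a magnesium transporter gene (chr10:83336832-83338313), Suz12 stood at 175.9 and 157.6 CPM at DRB 0 h, 148 and 130.9 at DRB 12 h, 141.1 and 168.9 at triptolide 0 h, and 101.3 and 127.6 at triptolide 9 h. Its mean density was 97.1 CPM per kb, the highest at a named gene start. Treated and untreated libraries overlapped there, and the log2 change over both drugs was -0.34 ± 0.11 (SE; edgeR adjusted p = 0.017), which was 0.021 when the libraries were scaled on the regions called in all 8 lists (the constitutive regions). Kcnk15, a tandem-pore potassium channel gene (chr2:163853144-163854577), followed with 81.6 CPM per kb, Slc22a21, a carnitine transporter gene (chr11:53979103-53980588), with 80 CPM per kb, and Kcng2, a modulatory potassium channel subunit gene (chr18:80295370-80296757), with 69.1 CPM per kb. At Kcnk15 the 4 untreated libraries held 129.6 to 142.2 CPM and the 4 treated ones 90.5 to 112.8, with no overlap. Its log2 change was -0.47 ± 0.10 (adjusted p = 0.0016). With the constitutive regions as base the change at Kcnk15 was -0.10 and not called (adjusted p = 0.36). Slc22a21 and Kcng2 had log2 changes of -0.12 ± 0.10 and -0.04 ± 0.11, which missed the threshold (adjusted p = 0.33 and 0.79). With the constitutive regions as base these were 0.25 and 0.33, both called higher (adjusted p = 0.046 and 0.030).

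Most narrow sites lay at gene starts. A start of a protein-coding gene lay within 1 kb of 430 sites (62.0%), while 140 (20.2%) were inside a gene and 124 (17.9%) outside genes. Among wider constitutive regions 73.5% were at a start and 9.28% outside genes, among gained regions 72.7% and 5.07%, and among all regions 65.8% and 12.7%. The annotation used here gives gene spans and starts but no exons, so exonic and intronic sites were not separated. On the X chromosome lay 21 sites (3.03%).

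Some sites away from gene starts stood beside a wide domain. A wider constitutive region lay within 10 kb of 29.3% of the sites inside genes and 29.0% of those outside genes, but of 4.42% of the sites at starts. Over all regions these shares were 24.2%, 29.8% and 8.79%, and over the wider regions themselves 35.8%, 54.4% and 15.3%. The median distance to the nearest wider region was 36.3 kb for sites outside genes, 69.9 kb for sites inside genes and 218 kb for sites at starts. For all regions the same distances were 57.5, 62.7 and 160.5 kb. These are counts of positions without a test.

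Few genes had both kinds of region at their starts. Of 21900 protein-coding genes, 431 had a narrow site within 1 kb of a start, 2679 had a wider constitutive region there, and 20 had both. Each merged region was either narrow or wider, so a start inside a wider region leaves little room for a narrow site within 1 kb. Low counts of genes with both, and of narrow sites in lists rich in wider regions, are therefore partly set by the rule. The 26 gene lists were matched by symbol patterns, and their counts are descriptive.

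Developmental transcription factors had wider regions and, in part by that rule, few narrow sites at their starts. All 39 Hox genes, which specify position along the body axis, had a wider region, and 0 had a narrow site. Of 137 other homeobox genes, 119 had a wider region and 1 a narrow site. Forkhead factors (27 of 44 with a wider region), Sox, Gata and T-box factors (31 of 41), TGF-beta and BMP pathway genes (37 of 76) and collagens, laminins and matrix proteases (39 of 107) had 0 narrow sites at a start. Of 93 bHLH factors, 55 had a wider region and only Hey1, a Notch target, a narrow site, which lay 61 bp from a wider region and 992 bp from the start.

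Several lists had narrow sites at more than 1 gene. Neurotransmitter receptors had narrow sites at 11 of 107 genes (10.3%), and the voltage-gated ion channel list at 10 of 142 (7.04%). The PRC2 and PRC1 list had them at 3 of 48 (6.25%) and cadherins and protocadherins at 7 of 115 (6.09%). For small GTPase regulators it was 12 of 267 (4.49%) and for solute carriers 13 of 389 (3.34%). Over all protein-coding genes the share was 1.97%. In the same order, a wider region lay at 46.7%, 50%, 22.9%, 40.9%, 21.0% and 18.0% of the genes of these lists. Over all protein-coding genes that share was 12.2%, so the higher shares of these lists are not particular to narrow sites. In the germline and meiosis list 4 of 106 genes had a narrow site (Ddx4, Tdrd1, Tdrd7 and Tex15) and 3 a wider region. The ion channel pattern also took in genes of channels that are not voltage-gated. Among these were Scnn1g (a subunit of the epithelial sodium channel), Kcnk10 and Kcnk15 (tandem-pore potassium channels) and Kcnj6 (an inward rectifier). The PRC2 and PRC1 pattern took in L3mbtl4, an MBT-domain gene that is no established subunit, and the ribosomal pattern Rps6kl1, a kinase-like gene. The zinc finger list had 7 of 465 genes with a narrow site (1.51%), the FGF and MAP kinase list 2 of 109, the nuclear receptor list 2 of 59, the list of CDK inhibitors and cyclins 2 of 40, and the Wnt, axon guidance, Notch and Hedgehog, imprinted and olfactory receptor lists 1 each. Pluripotency genes (0 of 39) and immediate early genes (0 of 49) had 0.

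**Figure D2:**
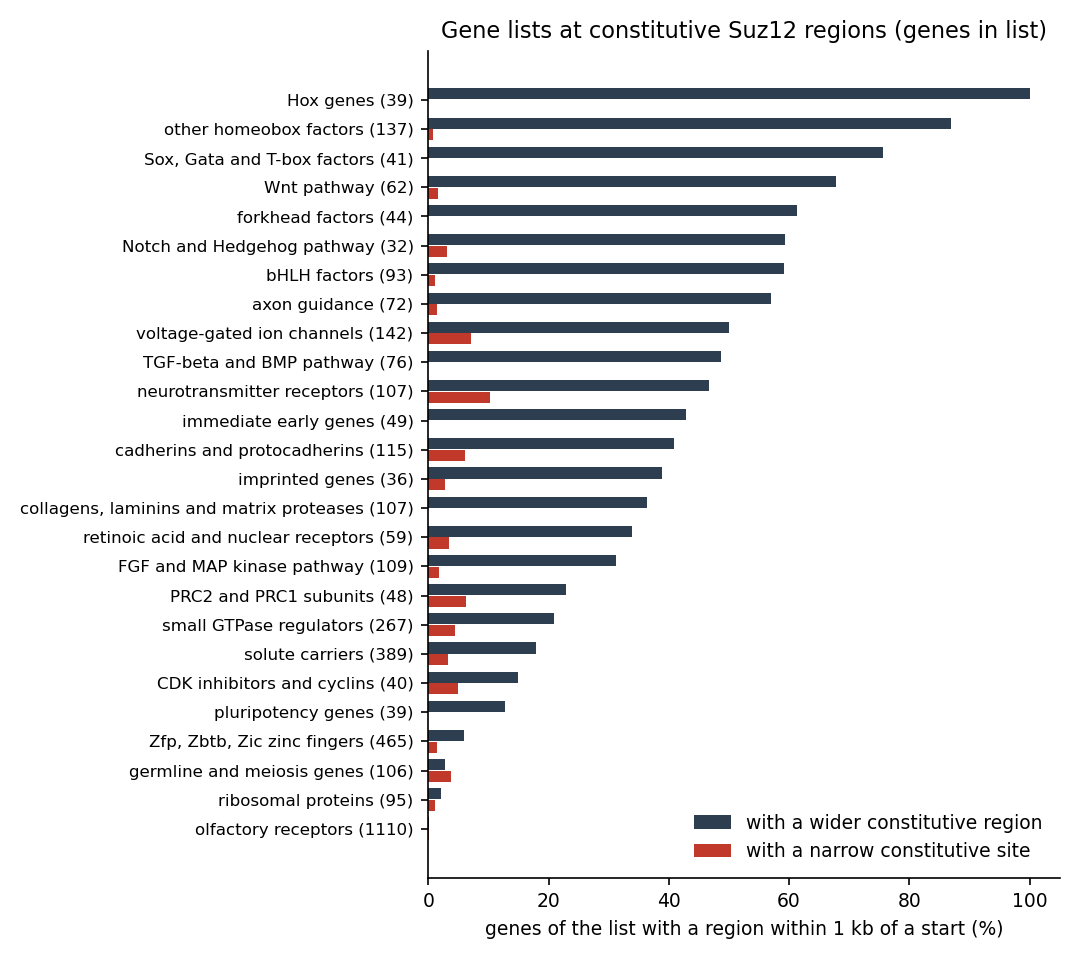
Share of the genes of each list (x axis, %) with a wider constitutive region (dark bars) or a narrow constitutive site (red bars) within 1 kb of a start, with the number of genes of the list in brackets. The dark bars run from 0.0901% for olfactory receptors to 100% for Hox genes, and the red bars reach 10.3% at most, for neurotransmitter receptors.

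After inhibition of transcription most narrow sites held a smaller part of the Suz12 reads. Before treatment 3.63% to 3.95% of the reads over regions fell in narrow sites, and after treatment 3.11% to 3.44%, without overlap between the 4 untreated and 4 treated libraries. Median density was 44.1 CPM per kb in untreated and 33.8 in treated cells. Over both drugs edgeR called 412 sites lower and 17 higher, and 265 passed in neither direction (quasi-likelihood test, adjusted p under 0.05 over all 11943 regions). Of all regions 28.9% were called lower and 28.0% higher. The rule asked for a peak in every list and a limited width in treated as in untreated cells, which leaves out gained and lost regions, so these counts are not independent of how the sites were chosen and are not read as a property of narrow sites. In wider constitutive regions, chosen by the same demand for 8 peaks, 59.0% were called lower and 11.8% higher.

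The number of falls depended on the scaling. The median log2 change was -0.42 over narrow sites, -0.37 over wider constitutive regions and 0.049 over all regions. With TMM computed on the regions called in all 8 lists, all changes shifted up by 0.36. The median was then -0.057 over narrow sites and 0.41 over all regions, and 141 narrow sites were called lower and 111 higher, where the shares of all regions were 10.7% and 49.2%. The higher calls were 4% of all calls with TMM over all regions and 44% with the constitutive regions as base. The narrow median lay at -0.47 from that of all regions. That distance cannot change with the scaling, which shifts every region alike. All 141 of those falls and all 17 rises of the first scaling were called under both.

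Single sites ranged from -1.24 to 0.95 on the log2 scale, with quartiles of -0.64 and -0.16. In 373 sites (53.7%) all 4 treated libraries were below all 4 untreated ones, where the share of all regions was 25.2%. In 14 sites (2.02%) all were above, where it was 24.4% of all regions. Standard errors ran from 0.099 to 0.33, with a median of 0.13.

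Most falls called under DRB were also called under triptolide. DRB lowered 249 and raised 6 sites, with 19.2% and 18.0% of all regions called in these directions. Triptolide lowered 291 and raised 10, against 21.9% and 19.3% of all regions. Counts of falls moved by more than 1.5 times with single libraries. The DRB count was 86 without the untreated index TGACCA library. The triptolide count was 137, 184, 117 and 94 without untreated replicates 1 and 2 and treated replicates 1 and 2 in turn. Of the falls, 200 were called under each drug on its own, which is 80.3% of the DRB falls and 68.7% of the triptolide falls. Another 4 sites were called higher under each drug, and 0 in opposite directions. Across the 694 sites the log2 changes under DRB and triptolide, which have separate untreated libraries, correlated with Pearson's r = 0.81 (sites share libraries and are no replicates), and 88.5% had the same sign. The overlap of calls, the correlation and the share of equal sign are not given for other regions. They are therefore not read as particular to narrow sites.

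A difference between the drugs was called at 0 narrow sites by edgeR and 0 by DESeq2 (7 at an unadjusted p under 0.05; 0.0167% of all regions called). The smallest adjusted p was 0.999, and site differences between the drugs ranged from -0.88 to 0.60 in log2. Comparing the untreated groups of the drug series also gave 0 calls in either tool, with 8 sites at an unadjusted p under 0.05 and 0% of all regions called. Within DRB the median log2 change was -0.48 for the index ATCACG libraries and -0.36 for the index TGACCA libraries, computed on log2(CPM + 1).

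**Figure D3:**
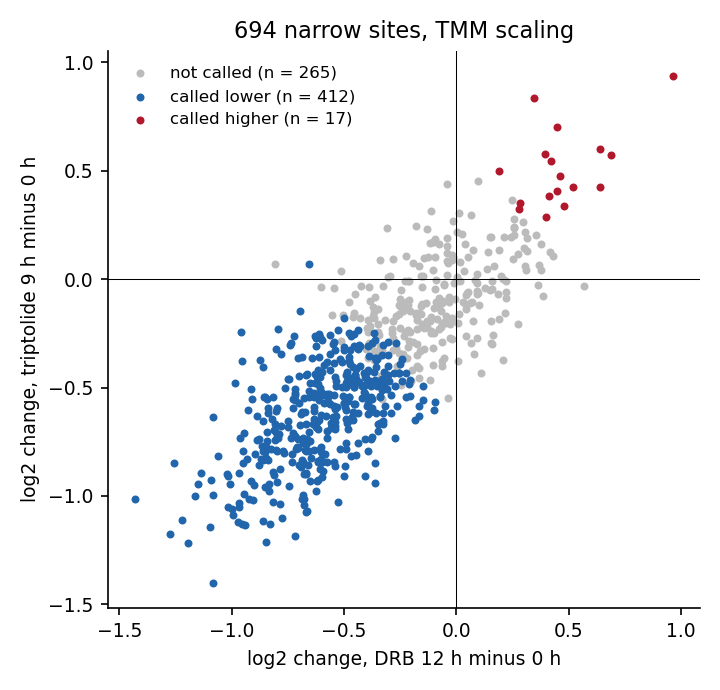
Log2 change of Suz12 under DRB (x axis, 12 h minus 0 h) and triptolide (y axis, 9 h minus 0 h) at the 694 narrow sites, coloured by the edgeR call over both drugs. The 412 sites called lower (blue) lie almost all in the lower left, and the 17 called higher (red) in the upper right.

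The 8 largest falls at named gene starts ran from -1.04 to -1.24 in log2. They were taken only from sites called lower with all treated libraries below all untreated ones, so that separation was set by the choice. At Npy5r, a neuropeptide Y receptor gene (chr8:66687226-66688398), Suz12 was 65.7 and 51.1 CPM at DRB 0 h and 24 and 28.9 at DRB 12 h. It was 62.8 and 58.5 CPM at triptolide 0 h and 26.2 and 19.8 at triptolide 9 h. All 4 treated values were under all 4 untreated ones, with a log2 change over both drugs of -1.24 ± 0.15 (SE, adjusted p = 3.1e-05). With the constitutive regions as base it was -0.88 (adjusted p = 0.00035).

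Enpp2 encodes autotaxin, the secreted enzyme that makes lysophosphatidic acid (chr15:54951958-54953103). Its site held 80.5 and 76.7 CPM at DRB 0 h, 28.8 and 34.8 at DRB 12 h, 66.8 and 68.2 at triptolide 0 h, and 30.7 and 29.1 at triptolide 9 h. The groups did not overlap, and the log2 change was -1.22 ± 0.12 (adjusted p = 9.3e-06). Slc25a21 encodes a mitochondrial carrier of oxodicarboxylates (chr12:57196426-57197663). Its site went from 101.9 and 98.8 CPM to 39.6 and 45.4 under DRB, and from 96.3 and 97.5 to 44 and 45.8 under triptolide. The groups were apart, and the log2 change of -1.17 ± 0.11 had an adjusted p of 6.4e-06.

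Pkib, which encodes an inhibitor of protein kinase A (chr10:57631691-57633127), had the promoter with 4 CG printed above. Its values were 68.2 and 68.7 CPM at DRB 0 h, 29.6 and 37.7 at DRB 12 h, 81.4 and 76.2 at triptolide 0 h, and 38.5 and 35.6 at triptolide 9 h. All treated values lay below all untreated ones, with a log2 change of -1.04 ± 0.12 (adjusted p = 2.9e-05). The remaining falls of this group were Dmrtb1, a DM-domain factor of the male germ line (-1.22 ± 0.13), Pgm5, a phosphoglucomutase relative found at cell junctions (-1.12 ± 0.11), Dcdc2c, a doublecortin-domain gene (-1.05 ± 0.13), and Map3k20, a stress-activated kinase gene (-1.05 ± 0.12). Their adjusted p ran from 1.4e-05 to 4.4e-05, and all 8 falls were called with the constitutive regions as base as well.

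Only 7 sites at named gene starts were called higher with all treated libraries above all untreated ones. Rab8b encodes a small GTPase of vesicle transport (chr9:66918610-66919888). Its site held 46.8 and 35.8 CPM at DRB 0 h, 64.4 and 60.2 at DRB 12 h, 39.3 and 42.6 at triptolide 0 h, and 63.5 and 60.4 at triptolide 9 h. Its log2 change was 0.62 ± 0.12 (SE, adjusted p = 0.0011).

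At Pacc1, which encodes a proton-activated chloride channel (chr1:191325630-191327064), the values were 48.5 and 42.4 CPM at DRB 0 h, 56 and 64.9 at DRB 12 h, 45.6 and 42.6 at triptolide 0 h, and 70.9 and 72.6 at triptolide 9 h. The lowest treated library was above the highest untreated one, and the log2 change was 0.57 ± 0.12 (adjusted p = 0.0012). The other rises were at Grin3b (0.48 ± 0.12), E2f6 (0.47 ± 0.12), Tasor2, a relative of the HUSH complex subunit TASOR (0.41 ± 0.13), Fam135a (0.32 ± 0.10) and Erfe, the gene of erythroferrone, a hormone that lowers hepcidin (0.30 ± 0.11). Their adjusted p ran from 0.0033 to 0.038.

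**Figure D4:**
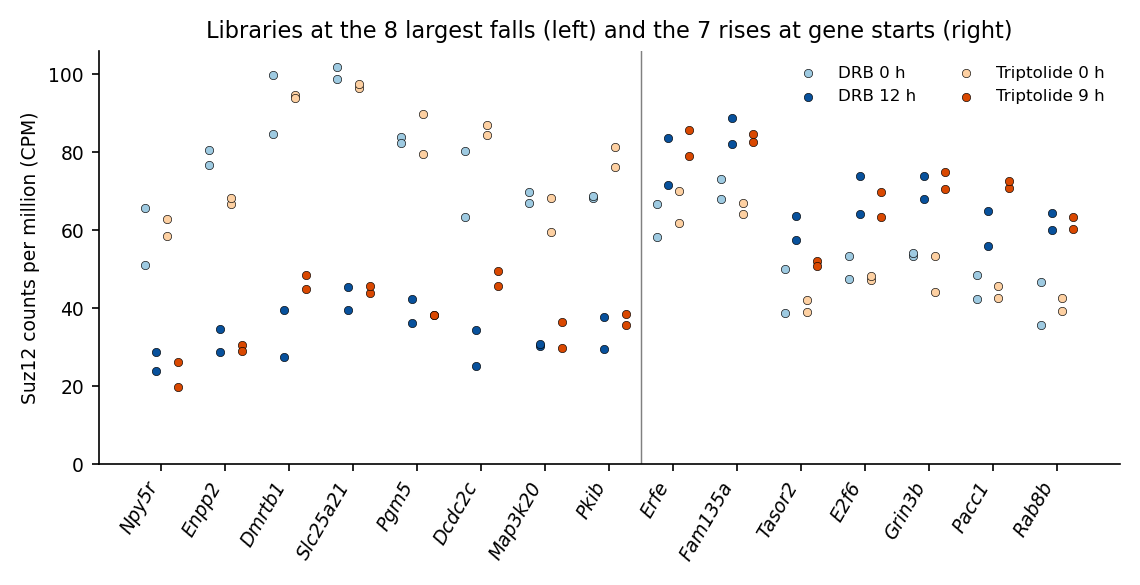
Suz12 CPM (y axis) in each of the 8 libraries at the 8 largest falls (left of the line) and the 7 rises (right) at named gene starts. Points are single libraries, light for 0 h and dark for treated. Only called sites with treated and untreated libraries apart were taken, so by that choice the dark points lie below the light ones at every fall and above them at every rise.

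The 10 other sites called higher were 3 at gene starts and 7 inside genes. Tnip2, Spata5l1 and Zfyve9 rose by 0.59, 0.47 and 0.34 in log2, with treated and untreated libraries overlapping. The largest rise of all narrow sites lay inside Sptbn4, the gene of a spectrin of the axon (chr7:27403885-27405296). Suz12 went from 49.3 and 41.9 CPM to 96.8 and 79 under DRB and from 43 and 40.1 to 80.2 and 79.1 under triptolide. All treated libraries were above all untreated ones, with a log2 change of 0.95 ± 0.12 (adjusted p = 4.8e-05), and a wider constitutive region lay 2404 bp away. Another site inside Sptbn4 (chr7:27371432-27372751) rose by 0.53 ± 0.13. The sites inside Rasip1 (0.63), Ryr1, the skeletal muscle calcium release channel gene (0.48), Lca5l (0.43), Cdh24 (0.40) and Niban3 (0.34) made up the rest. These sites were named after their values were seen.

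Gene lists at starts were read against all 430 narrow sites there, of which 253 (58.8%) were called lower and 10 (2.33%) higher. With the constitutive regions as base these shares were 19.1% and 17.2%. Over all regions at starts 26.9% were called lower and 32.5% higher with TMM over all regions, and 9.73% and 55.8% with the constitutive regions as base.

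Neurotransmitter receptor genes fell at 8 of 11 sites at starts, beside 58.8% of all narrow start sites. Drd1, a dopamine receptor gene (chr13:54054652-54056104), held 94.5 and 85.4 CPM at DRB 0 h, 58.4 and 50.5 at DRB 12 h, 88 and 88.8 at triptolide 0 h, and 54.4 and 53.7 at triptolide 9 h. Untreated and treated libraries were apart, and the log2 change was -0.72 ± 0.11 (adjusted p = 0.00015). Glrb, the beta subunit gene of the glycine receptor, fell by 0.56 on the log2 scale and Gria3, an AMPA receptor gene, by 0.90. Htr2c, a serotonin receptor gene, fell by 0.84, and Grik2, a kainate receptor gene, by 0.76. With the constitutive regions as base Glrb was not called (-0.20, adjusted p = 0.25).

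Against these falls stood Grin3b, a gene of an NMDA receptor subunit (chr10:79970505-79971775). It held 53.4 and 54.1 CPM at DRB 0 h, 74 and 68 at DRB 12 h, 53.3 and 44 at triptolide 0 h, and 70.7 and 74.9 at triptolide 9 h, with no overlap. Grin1, the obligatory NMDA receptor subunit gene, had a change of 0.11 ± 0.11 that did not pass (adjusted p = 0.43) and was 0.47 and called higher with the constitutive regions as base (adjusted p = 0.0049), and Gabrd, a GABA-A receptor gene, one of -0.07 ± 0.14 (0.68). The list's median was -0.72, and -0.35 with the constitutive regions as base, where 6 sites were called lower and 2 higher.

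Ion channel genes fell at 7 of 10 sites, beside 58.8% of all narrow start sites, with a median of -0.50. With the constitutive regions as base 2 were called lower and 1 higher, with a median of -0.14. Kcnk10, a tandem-pore potassium channel gene, fell by 0.92, Kcnj6, an inward rectifier gene, by 0.63 and Kcnk15 by 0.47. On the constitutive base Kcnk15 was not called (-0.10, adjusted p = 0.36). Cadherins and protocadherins, cell adhesion genes, fell at 5 of 7 sites, beside the same 58.8%, with a median of -0.76. On the other base 4 were called lower and 1 higher, with a median of -0.39. The protocadherin members Pcdhb2, Pcdhb5, Pcdhb7, Pcdhb17, Pcdhga4 and Pcdhga8 belong to clusters of closely related genes on chromosome 18, where read placement can be uncertain. Pcdhga8 had a change of 0.17 ± 0.13 (adjusted p = 0.28), which was 0.54 and called higher on the other base (adjusted p = 0.0051).

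Solute carrier genes fell at 8 of 13 sites, a share near the 58.8% of all narrow start sites, with a median of -0.34. On the other base 2 were called lower and 1 higher, and the median was 0.021. Slc16a12, a monocarboxylate transporter gene (chr19:34746311-34747796), had 97.8 and 96.2 CPM at DRB 0 h, 54.8 and 63.8 at DRB 12 h, 109.2 and 110.5 at triptolide 0 h, and 58.4 and 62.2 at triptolide 9 h. The groups were apart, and the log2 change was -0.78 ± 0.10 (adjusted p = 6.8e-05). Of the zinc finger genes 4 of 7 fell, also near 58.8%, Zfp804b by 1.01 on the log2 scale, and on the other base 1 was called lower and 1 higher. Small GTPase regulators fell at 5 of 12 sites, beside 58.8%, and rose at 1, that of Rab8b, with a median of -0.25. On the other base 2 were called lower and 5 higher, with a median of 0.11, where 55.8% of all regions at starts were called higher. Rhoj, a GTPase of endothelial cells, fell by 1.03 and Rasef by 0.75, while Arhgap29, a GTPase-activating protein gene, had a change of 0.18 ± 0.12 that did not pass (adjusted p = 0.22) but was 0.54 and called higher on the other base (adjusted p = 0.0026).

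The 3 sites of the PRC2 and PRC1 list were split, and L3mbtl4 among them is no established subunit. E2f6 encodes a repressor that belongs to a variant PRC1 complex (chr12:16810495-16811940). It held 53.4 and 47.5 CPM at DRB 0 h, 74 and 64.2 at DRB 12 h, 47.3 and 48.4 at triptolide 0 h, and 63.5 and 69.7 at triptolide 9 h, higher in all treated libraries. L3mbtl4, an MBT-domain gene (chr17:68273241-68274603), went from 62.5 and 63.8 CPM to 33.2 and 45.5 under DRB and from 82.3 and 75.1 to 39.8 and 42.9 under triptolide, a log2 change of -0.79 ± 0.13 (adjusted p = 0.00024). All treated libraries were lower there. Phc2, a subunit gene of canonical PRC1, had 41.9 to 59.8 CPM in untreated and 41.3 to 54.1 CPM in treated libraries, which overlapped (-0.08 ± 0.14, adjusted p = 0.64).

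The cell cycle inhibitor genes Cdkn2a and Cdkn2b, neighbours that PRC2 is known to silence, each had a narrow site. Cdkn2a (chr4:89281581-89282865) held 47.7 to 66.5 CPM in untreated and 29.6 to 41.6 CPM in treated libraries, and the log2 change was -0.64 ± 0.13 (adjusted p = 0.0014). Cdkn2b (chr4:89309907-89311175) held 41.9 to 63.2 CPM and 26.8 to 40.7 CPM, with a change of -0.69 ± 0.17 (adjusted p = 0.0035). Neither range overlapped. With the constitutive regions as base the changes were -0.28 and -0.32 and did not pass (adjusted p = 0.10 and 0.12).

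Some other members of the lists are given singly. Esr2, an oestrogen receptor gene, fell by 0.55, Rspo4, a secreted enhancer of Wnt signals, by 0.47, and Dcc, a netrin receptor gene, by 0.74 on the log2 scale. Rxrg, a retinoid X receptor gene, fell by 0.36 (adjusted p = 0.016), a change that was 0.0016 on the other base. On that base Esr2 (adjusted p = 0.30), Rspo4 (0.44), Dcc (0.066), Rxrg (0.99) and Ndn (0.15) were not called. Fgfr4, an FGF receptor gene, had -0.34 ± 0.15 and Hey1 -0.25 ± 0.12, which missed the threshold (adjusted p = 0.074 and 0.088). Ndn, an imprinted gene of the Prader-Willi region, fell by 0.56 ± 0.11 over both drugs. It held 93.7 and 89.9 CPM at DRB 0 h, 46.8 and 58.2 at DRB 12 h, 77.4 and 81.6 at triptolide 0 h, and 58.6 and 66.4 at triptolide 9 h, all treated libraries being lower.

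The germline genes, which a variant PRC1 with E2F6, MGA and MAX is known to hold silent in embryonic stem cells, fell at 2 of 4 sites, beside 58.8% of all narrow start sites. Ddx4, the germ cell RNA helicase gene also called Vasa (chr13:112651667-112652718), held 32.9 and 52.2 CPM at DRB 0 h, 34.8 and 39.9 at DRB 12 h, 45.6 and 44.8 at triptolide 0 h, and 33.2 and 36.6 at triptolide 9 h. Untreated and treated libraries overlapped, and the log2 change of -0.31 ± 0.15 did not pass (adjusted p = 0.092). Tex15 had -0.08 ± 0.14 (adjusted p = 0.63). Tdrd1 and Tdrd7, Tudor-domain genes of germ cell granules, fell by 0.42 and 0.54 (adjusted p = 0.045 and 0.0015), and neither was called with the constitutive regions as base (adjusted p = 0.79 and 0.20).

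The promoter of Ddx4 held both an E-box CACGTG, the motif of MAX dimers, and a GCGGGAA, the motif of E2F6. These stretches are shown 5′ to 3′ along the gene, on the minus strand, with the motif in capitals. They lie at chr13:112652323-112652350 and chr13:112652429-112652457, and the motifs begin 29 and 136 bases before the annotated start.
Ddx4 E-box: gcgtccgcccgCACGTGcagccgtttaa
Ddx4 E2F6 motif: ccgtccatgggGCGGGAAgtcgcgcgccg

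Motifs were counted on both strands in the 300-base promoters (250 bases before to 50 after a start) that lay wholly inside a narrow site. These were 275 promoters at 259 sites. CACGTG was in 7.64% of them and in 7.84% of all 21263 promoters, and GCGGGAA in 6.55% and 5.95%. Both motifs were in the promoters of 3 genes, Ddx4, L3mbtl4 and Slc9a3. CGCG was in 77.1% (49.2% of all promoters), TATAAA in 6.18% (12.6%) and CCAAT in 25.5% (38.2%). In the same order these shares were 82.3%, 7.02% and 29.3% in wider constitutive regions and 87.4%, 3.54% and 28.5% in gained regions. The differences from all promoters are thus not particular to narrow sites. CGCG and GCGGGAA can share bases, none of these motifs contains another, and a match shows only that the letters are there.

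The promoters at narrow sites held more CG than most promoters. The median was 21 CG dinucleotides per 300 bases, against 24 in wider constitutive regions, 28 in gained regions, 8 in promoters outside every region and 13 over all promoters. Larger falls went with fewer CG. Across the 259 sites the CG count of the promoter correlated with the log2 change over both drugs (Pearson's r = 0.32) and with CPM per kb (r = 0.24), as a description of sites that share libraries. In the 86 sites with the fewest CG (3 to 17) 60 were called lower, with a median change of -0.52. In the 87 sites with the most (25 to 54) 41 were called lower and 3 higher, with a median of -0.28. Beside these counts, 58.8% of all narrow start sites and 26.9% of all regions at starts were called lower. In wider constitutive regions the same correlation was 0.20 over 1803 regions. The G and C content of these promoters (median 64.3%) moves with their CG count, and its part in the relation was not tested.

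**Figure D5:**
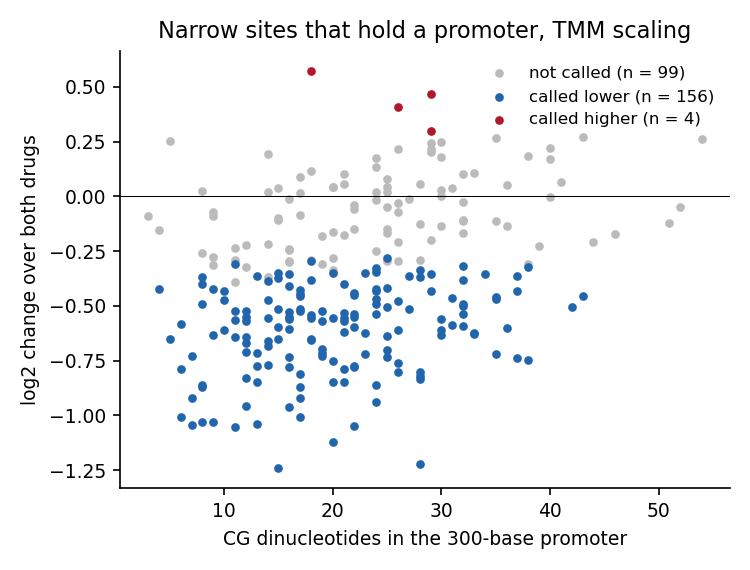
Log2 change of Suz12 over both drugs (y axis) against the number of CG dinucleotides in the 300-base promoter (x axis) at the 259 narrow sites that hold a promoter, coloured by edgeR call. The median count was 19 CG at the 156 sites called lower, 24 at the 99 not called and 27.5 at the 4 called higher, and the points scatter widely (r = 0.32).

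Hairpins of the microRNAs Mir152 and Mir7236 lay wholly inside narrow sites. The first site, at the start of Copz2, a coat protein gene (chr11:96849491-96850789), contains the hairpin of Mir152, and its Suz12 change was -0.02 ± 0.14 (adjusted p = 0.93), with 35.3 to 45.9 CPM in untreated and 34 to 46.6 CPM in treated libraries.

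Away from gene starts, 159 of 264 sites were called lower and 7 higher. Over all regions away from starts these shares were 32.7% and 19.2%. With the constitutive regions as base 59 of the 264 sites were called lower and 37 higher, with a median of -0.075. On that base 12.5% of all regions away from starts were called lower and 36.4% higher. Of the 124 sites outside genes 85 were called lower and 0 higher by edgeR (0 higher at an unadjusted p under 0.05, 0 higher by DESeq2). Their median was -0.51. Over all regions outside genes the shares were 43.4% and 7.88%, with a median of -0.36. With the constitutive regions as base 35 of the 124 sites were called lower and 9 higher, with a median of -0.15. On that base 18.3% of all regions outside genes were called lower and 20.2% higher. The named sites of highest mean CPM away from starts lay inside Klhl31 (96.1 CPM per kb, chr9:77654779-77656166), Artn, the gene of the neurotrophic factor artemin (74 CPM per kb, chr4:117926164-117927644), and Has1, a hyaluronan synthase gene (71.9 CPM per kb, chr17:17849451-17850870). Has1 fell by 0.57 ± 0.11 (adjusted p = 0.00079), while Klhl31 (-0.26 ± 0.12) and Artn (-0.06 ± 0.10) did not pass (adjusted p = 0.08 and 0.65). With the constitutive regions as base Has1 was not called (-0.21, adjusted p = 0.12), Klhl31 was at 0.10 (0.48), and Artn was called higher (0.31, adjusted p = 0.020).

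Developmental factors that lacked narrow sites at their starts appeared among the nearest genes of these distal sites. For 23 sites away from starts the nearest start was that of a homeobox gene other than Hox, 21 of them were called lower, beside 60.2% of all narrow sites away from starts, and 15 had a wider constitutive region within 10 kb. The median change was -0.59. For 11 sites the nearest start belonged to a bHLH gene, with 8 called lower, beside the same 60.2%, and a median of -0.58. For 5 it belonged to a Wnt pathway gene, with 4 called lower. Of the wider constitutive regions, 618 lay inside genes and 333 outside genes. Among these the nearest start was of such a homeobox gene for 100, of a bHLH gene for 30 and of a Wnt pathway gene for 12. Such neighbours are thus not particular to narrow sites. The nearest start is a label of position and not of regulation.

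Near Pax9, a factor of tooth and thymus development, the site lay 13290 bp from the nearest start and 5729 bp from a wider region (chr12:56680733-56682181). It held 78.9 and 105.9 CPM at DRB 0 h, 35.2 and 45.7 at DRB 12 h, 109.8 and 119.8 at triptolide 0 h, and 48.2 and 50.6 at triptolide 9 h. Untreated libraries were all higher, and the log2 change was -1.20 ± 0.13 (adjusted p = 1.7e-05).

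The site inside Wnt5a, a Wnt ligand gene, 8570 bp from a start and 5199 bp from a wider region (chr14:28517438-28518878), went from 92 and 92.2 CPM to 38.8 and 54.9 under DRB and from 108.1 and 102.9 to 45.3 and 50.8 under triptolide. Its treated libraries were all lower (-1.04 ± 0.12, adjusted p = 3.5e-05). The site inside Wnt3, a ligand of gastrulation (chr11:103794840-103796177), had the same change with 73.6 to 85.4 CPM in untreated and 30.4 to 43.7 CPM in treated libraries.

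Near Isl1, a factor of motor neurons and heart progenitors, the sites chr13:116293221-116294617 and chr13:116296914-116297976 fell by 1.05 and 0.77. A site near Foxl2, an ovary factor (chr9:98964688-98966066), fell by 1.02, and a site inside Inhba, the activin A subunit gene (chr13:16017028-16018338), by 0.99 with no wider region for 551683 bp. All of these, named after their values were seen, were also called lower with the constitutive regions as base.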

How the data were processed

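Suz12 ChIP-seq peaks and counts of wild-type E14 mouse embryonic stem cells were used, from 8 lists and the 8 count columns of the same groups. The authors used Bowtie for alignment and MACS for peaks, on mm10 (GRCm38), per the submitters' processing notes, which give no versions. A deposited file lists 1 library's peaks and, per the file headers, the raw read counts of every library over them, without normalization. The triptolide columns carry replicate numbers and the DRB columns only an index, and 5 other columns were not used.

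Peaks were merged at 1 bp overlap, and a region's counts were those over its widest peak. Counts were tested in edgeR 4.0.16 (R 4.3.3) by quasi-likelihood with TMM scaling, 4 groups, no filter and Benjamini-Hochberg adjustment over 11943 regions at 0.05. On simulated data over both drugs the test recovered 56.7% of 67 regions changed 1.5-fold, 95.5% of 67 changed 2-fold and 98.5% of 66 changed 3-fold. There were 8 false calls among the rest of the 11943 regions. The simulation changed regions at random in both directions, with the same spread in every library. In the data many more regions were called and replicate noise differed between groups, so these rates need not hold there, and they do not cover the choice of scaling.

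Gene spans, starts and promoters came from RefSeq (GRCm38.p6). Promoter rows gave the starts of 17492 of 21900 protein-coding genes, and either annotated end was used for the rest. The genes named were the 8 largest rises and falls at starts with treated and untreated libraries apart, the 4 densest, the 4 narrowest, 2 on each side of the width limit, the 3 of highest CPM of each list and the 3 away from starts of highest CPM, without Gm and Rik symbols; some genes that this rule takes are left out here. Others are named as chosen after their values were seen, which also holds for members of lists beyond the first 3. The members and the gene lists were chosen with earlier results of these data known.

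Alternatives were DESeq2 size factors, the sum of all counts and the regions called in all 8 lists as scaling base, the DESeq2 1.42.0 test, edgeR's filter on low counts, each library left out, a replicate block, an overlap of 0.5, other windows to a start, and width limits of 1000 and 2000 bp. Leaving out both index ATCACG libraries was added after seeing the data.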

Additional observations from a re-analysis of the deposited data

How the results depend on the processing

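Calls are relative, since no reads outside the regions were used, and 2 libraries a group limit each drug alone. Over both drugs, higher and lower calls were 51 and 228 with the sum of all counts and 111 and 141 with the constitutive regions as base. They were 0 and 36 for a width limit of 1000 bp and 85 and 912 for 2000 bp, limits that left 64 and 1604 sites. For DRB the same 4 settings gave 21 and 112, 48 and 55, 0 and 21, and 48 and 599. For triptolide they gave 27 and 116, 75 and 57, 0 and 17, and 52 and 678, and higher calls were 6 with the DESeq2 test and 19 without both index ATCACG libraries. The median change was -0.22 and -0.057 with the first and second scaling. On the constitutive base 15 of the 57 named sites below 0 turned positive, among them Rxrg (0.0016) and Slc41a2 (0.021), which had been called lower. Of 44 named sites called lower 22 were still called lower there and 22 were not called, and 7 not called before were called higher. The share near a start was 66.7% with a 2.5 kb window, 51.6% at 1000 bp and 65.6% at 2000 bp. A narrower or wider limit changes the set of sites by construction, and for the scaling bases, the DESeq2 test and the libraries left out the cause was not tested.

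Leaving out each library gave 10 to 24 higher and 326 to 439 lower calls over both drugs, the lowest higher count being without treated triptolide replicate 1. It gave 2 to 10 and 86 to 315 for DRB, both lowest without the untreated index TGACCA library, with 10 higher calls without the treated one. It gave 2 to 17 and 94 to 337 for triptolide, where each of the 4 triptolide libraries moved both counts by over 1.5 times and leaving out either DRB 12 h library gave 17 higher, and a median change of -0.46 to -0.38. Requiring 7 of the lists left 701 to 906 sites. Where a group is left with 1 library, that library is taken to vary like the other groups.

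The replicate block, possible for triptolide alone, gave 17 higher and 407 lower over both drugs, 5 and 242 for DRB and 9 and 269 for triptolide. It changed the call of 0 of the 76 named results. Replicate differences at triptolide 0 h and 9 h correlated with r = 0.394 over all regions and 0.388 over narrow sites. Same-numbered triptolide libraries thus deviated together in part. With only 1 pair of numbers this cannot show whether they were paired, and the main test did not pair them.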
